A study of Mus musculus with 10 samples.

Results

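The genes described here were the low-expressed ones that were higher after IL-22 in MIN6N8 cells. A gene was taken when the mean of its 5 PBS libraries was under 20 CPM (the count scaled to a common library size) and the mean of its 5 IL-22 libraries was higher. From the 50 genes that met this, 12 were left out by name, which left 38 of the 230 genes in the table. No listed gene under 20 CPM was lower with IL-22, so all 50 were higher. Of the other listed genes, 138 were higher with IL-22 at 20 CPM or more, 33 were lower, and 9 further abundant genes were left out by name. The rule used the IL-22 against PBS difference itself, and the authors had already selected the table on that comparison. The differences below are therefore descriptions, and the test calls counted further on do not support them.

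MIN6N8 is an insulin-secreting line derived from a mouse insulinoma, and all 10 libraries came from this 1 line. The cells were kept in high glucose (22 mM) and moved to 5.5 mM glucose for the experiment, in both groups. The control group received PBS (5 libraries) and the other group 100 ng/mL IL-22 (5 libraries), each for 4 h. The sample labels do not say whether the libraries of a group were separate cultures, so the spread between them may be technical. The paper's supplement calls its samples independent, though it gives another number of them.

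IL-22 is a cytokine of the IL-10 family that acts on epithelial and secretory cells through a receptor made of IL-22RA1 and the IL-10 receptor beta chain. Receptor binding activates JAK kinases, which phosphorylate STAT3, and STAT3 dimers enter the nucleus and bind paired TTC and GAA elements near their targets. In liver this route drives acute-phase genes, whose products are secreted protease inhibitors, pentraxins and complement regulators. Of 18 beta-cell markers 7 were in the table, Iapp, Mafa, Pdx1, Nkx6-1, Nkx2-2, Slc2a2 and Pcsk1n, and 0 were among the 38 genes. No marker of alpha, delta, PP, acinar, immune, endothelial or fibroblast cells was in the table. The duct marker Muc1 was, and it was left out of the 38 by name. As the table holds selected genes only, this does not measure other cell types.

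The libraries held 23685886 to 35785875 counted reads with PBS and 26759222 to 30568907 with IL-22. The 38 genes together took 0.0405% ± 0.0032 (SD, n = 5) of the PBS reads and 0.0541% ± 0.0006 (SD, n = 5) of the IL-22 reads. Single values rested on 2 to 914 reads per library. The libraries also differed in how read numbers followed base composition. A GC index was taken for each library as the slope of log2 CPM on transcript GC content over the 192 listed genes outside the 38. Per 10 percentage points of GC it was -0.149, -0.135, -0.0487, -0.0889 and 0.0483 in PBS replicates 1 to 5. In IL-22 replicates 1 to 5 it was 0.04996, 0.0758, 0.0693, 0.102 and 0.0765. Every IL-22 index was above every PBS index, and PBS replicate 5 lay next to the IL-22 libraries. The index and the treatment therefore cannot be fully told apart, and fold changes are given below without and with the index as a covariate. The 192 genes behind the index were themselves selected on the same comparison. Among them the abundant higher genes had a median GC content of 58.1% and the lower genes 43.1%. The index difference between the groups therefore partly restates this selection.

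Across the 38 genes the median log2 fold change was 0.43, from 0.25 for Naprt to 1.92 for 1700084C01Rik, and the median fold was 1.34. The median over all 230 listed genes was 0.21, and over the 138 abundant higher genes it was 0.20. With TMM scaling over the listed genes these medians moved together, to 0.23 for the 38 genes and 0.002 for all listed genes. The listed genes were selected for change and most were higher, so TMM over them brings the table's median near 0 by construction. The shift therefore does not show which scaling is right. Only 1700084C01Rik, 4930413G21Rik and Gm1673 had a log2 fold change over 1, and 24 genes were under 0.5. In absolute terms the differences were small, with a median of 3.39 CPM and a range from 0.938 CPM for Apcs to 8.59 CPM for Tifa. The median difference of the abundant higher genes was 9.36 CPM. In bulk RNA a change in the number of expressing cells and a change in RNA per cell cannot be told apart.

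The IL-22 and PBS libraries did not overlap for 19 of the 38 genes, beside 46.5% of all listed genes. At an FDR of 0.01 in edgeR's quasi-likelihood test, 34 of the 38 (89.5%) were called higher, beside 81.3% of the table. Both counts describe genes that were chosen on this contrast. Apcs, Mzf1, Zfp579 and Bola1 were the 4 genes not called. Of the 19 genes that overlapped, 11 did so through PBS replicate 5 alone. Without PBS replicate 5 the groups were apart for 30 of the 38 genes, and the matching share of all listed genes was not counted. PBS replicate 5 was the highest PBS library for 17 of the 38 genes and for 117 of the 230 listed genes. With TMM factors 7 genes were called higher, beside 7.83% of the table. With the GC index as covariate 4 were, namely Anks1b, Cartpt, Lrrtm2 and Tifa, beside 7.39% of the table.

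**Figure D1:**
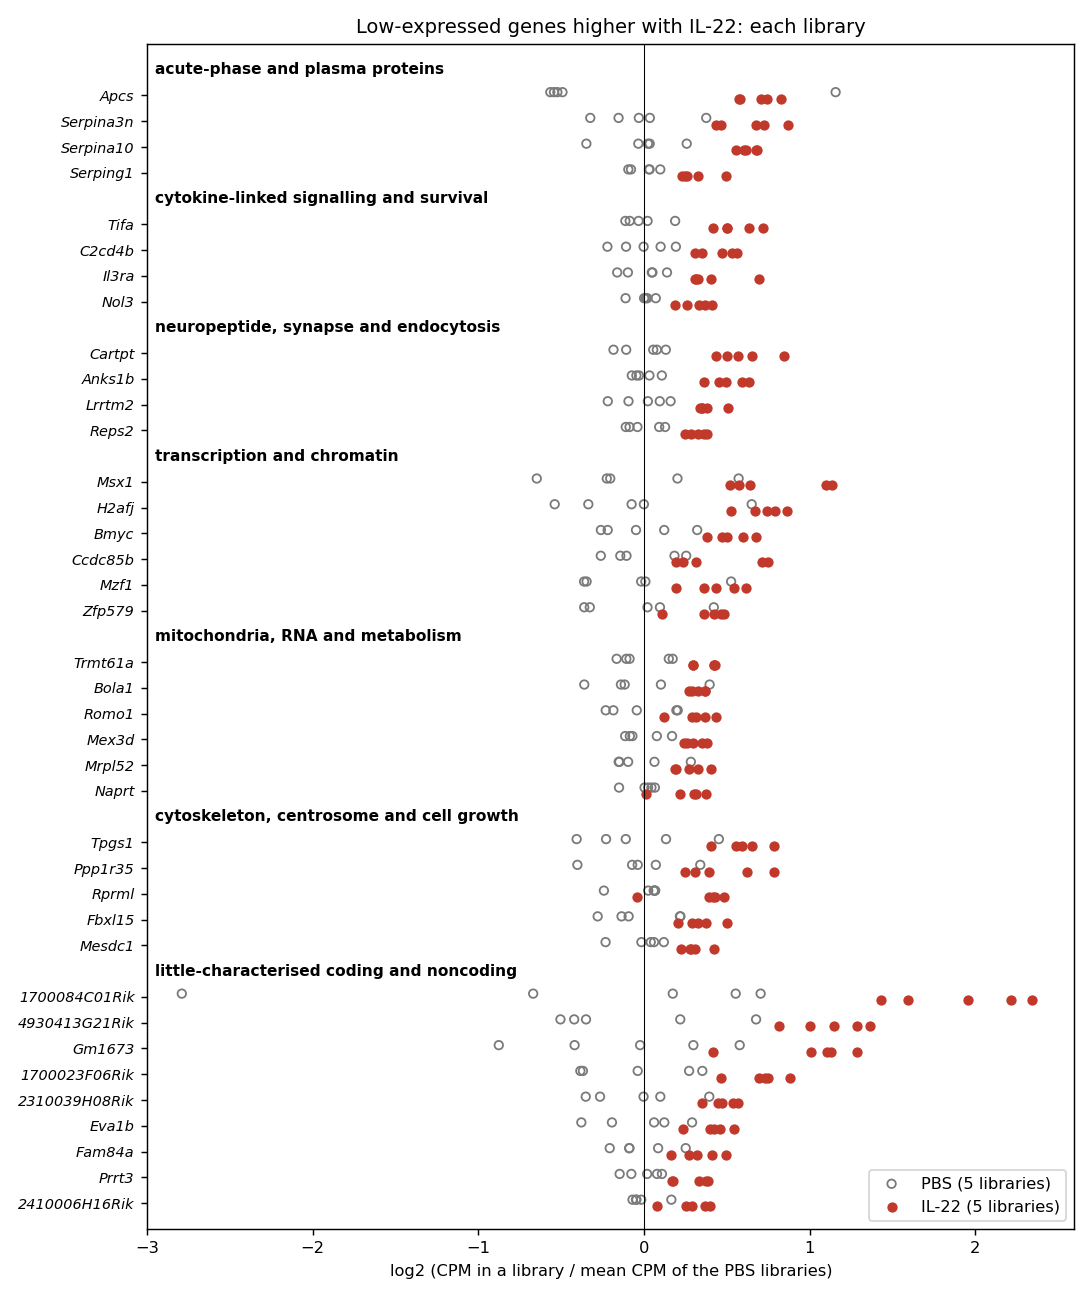
Log2 of the CPM in each library over the mean CPM of the PBS libraries, on the horizontal axis, for the 38 genes on the vertical axis, arranged by function. Open grey circles are the 5 PBS and filled red circles the 5 IL-22 libraries. The red circles lie clear of the grey ones for 19 genes, and 1700084C01Rik is farthest to the right.

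The 6 genes under 3 CPM with PBS had a median log2 fold change of 0.92, and the 32 genes at 3 CPM or more had 0.38. Across the 38 genes Spearman's rho between PBS level and log2 fold change was -0.756. This is a correlation across genes of the same 10 libraries, and the PBS libraries enter both measures. The rule used both, and the table was limited by the authors' FDR, which a gene with few reads passes only with a larger fold, so nothing is read from this relation. Just inside the limit of 20 CPM stood Eva1b (19.9 CPM with PBS, 26.6 CPM with IL-22), Romo1 (18.95 and 23.5 CPM) and Serping1 (18.8 and 23.4 CPM). Just outside it stood Nfkbib (20.05 and 23.9 CPM), Mrpl34 (20.9 and 24.9 CPM) and Avil (21.1 and 26.2 CPM). The log2 fold changes of the genes inside were 0.31 to 0.42 and of those outside 0.25 to 0.31, so sizes of change on the 2 sides of the limit met. Limits of 10 and 30 CPM would have kept 15 and 60 genes, with medians of 0.65 and 0.33.

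**Figure D2:**
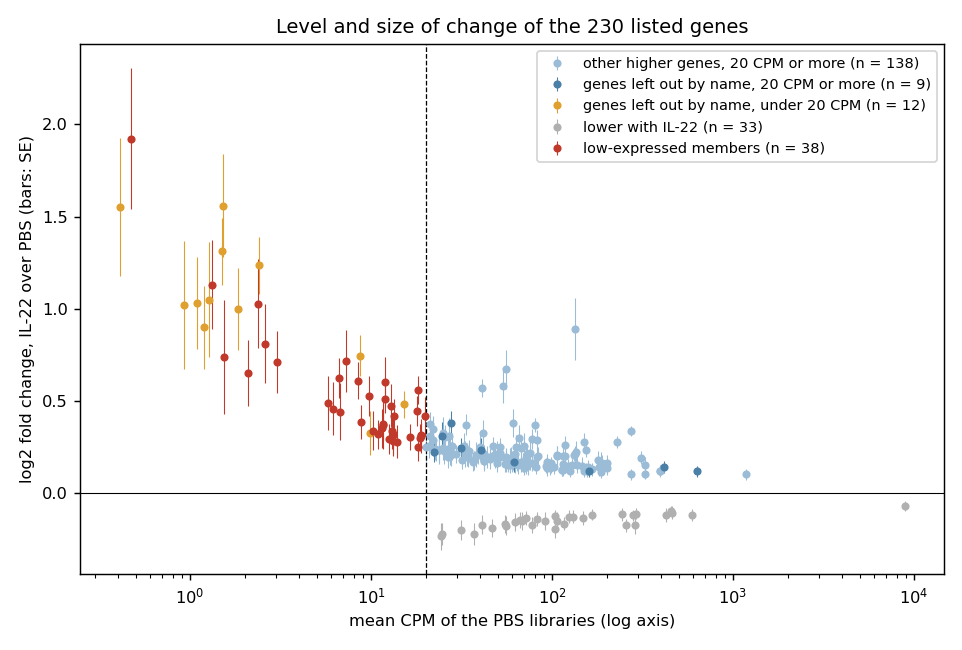
Log2 fold change (IL-22 to PBS) with its SE, on the vertical axis, against the mean CPM of the PBS libraries on a log axis, for the 230 listed genes. Red points are the 38 low-expressed genes, orange points the low genes left out by name, blue points the other higher genes and grey points the lower ones. The red points lie left of the dashed line at 20 CPM and spread upwards as the level falls, from near 0.3 to 1.92.

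Promoter sequence is shown for 4 of the 5 genes whose start region held a STAT or NF-kB element, since these are the factors nearest to cytokine signalling. RefSeq promoters (GRCm38.p6, 250 bases before to 50 after the start) were matched for 32 of the 38 genes. TTCNNNGAA, the core that STAT dimers bind, was searched on both strands. It was found for Anks1b, Apcs and Rprml, which is 9.38% of the 32 genes beside 9.55% of all 27025 genes with a promoter. An NF-kB element, GGG and TTTCC with any 2 bases between them, was searched likewise and found for Serpina3n and Tifa (the Tifa stretch is not printed), 6.25% beside 1.89%. TGANTCA, the AP-1 element, was found for Rprml alone, 3.12% beside 8.97%. In Rprml it began 184 bases before the start and the STAT core 239, so they did not overlap. In the following stretches capitals mark the motif, and the strand is that of the gene.
Apcs, chr1:172895254-172895304, minus strand: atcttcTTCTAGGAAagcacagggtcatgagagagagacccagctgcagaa
Anks1b, chr10:90575608-90575688, plus strand: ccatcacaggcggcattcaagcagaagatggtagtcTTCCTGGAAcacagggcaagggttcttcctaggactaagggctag
Rprml, chr11:103649259-103649314, plus strand: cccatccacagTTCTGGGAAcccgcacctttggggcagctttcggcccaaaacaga
Serpina3n, chr12:104406501-104406582, plus strand: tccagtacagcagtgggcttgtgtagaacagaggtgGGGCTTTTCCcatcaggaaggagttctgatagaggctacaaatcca
The motif began 244 bases before the start of Apcs, 83 before that of Anks1b, 239 before that of Rprml and 171 before that of Serpina3n. The Anks1b start lies inside the gene, which has several annotated starts. These are matches of letters, and binding was not measured.

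The genes fell into 7 groups by known function, made once their names and values were known. The acute-phase and plasma protein group held Apcs, Serpina3n, Serpina10 and Serping1, and its median log2 fold change was 0.64 (0.57 with the GC index). All 4 products are secreted, and liver is a main source of them. The IL-22 libraries were clear of the PBS libraries for 3 of them, with Apcs the exception.

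Apcs (chr1:172893961-172895041, GRCm38) encodes serum amyloid P component, the pentraxin that is the main acute-phase reactant of the mouse. It was at 1.09, 3.42, 1.07, 1.05 and 1.04 CPM in PBS replicates 1 to 5. With IL-22 it was at 2.29, 2.50, 2.28, 2.57 and 2.72 CPM. Every IL-22 library was above 4 of the PBS libraries, and PBS replicate 2 was above all of them. The change in log2 terms was 0.74 with an SE of 0.31, and 1.21 without PBS replicate 2. Adjusted for the GC index, it was 1.47.

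Serpina3n (chr12:104406729-104414329), a protease inhibitor related to human antichymotrypsin, was at 1.87, 2.70, 2.13, 1.66 and 2.04 CPM in PBS replicates 1 to 5. In IL-22 replicates 1 to 5 it was at 2.88, 3.32, 3.44, 2.81 and 3.80 CPM. The groups did not overlap, though PBS replicate 2 came close to the lowest IL-22 library and was the highest PBS library, as for Apcs. The log2 fold change was 0.65 (SE 0.18), and 0.71 with the GC index.

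Serpina10 (chr12:103614786-103631444), the protein Z-dependent inhibitor of coagulation factor X, lies on the same chromosome as Serpina3n. Its PBS values were 6.46, 5.19, 7.90, 6.72 and 6.77 CPM, and its IL-22 values 9.72, 10.0, 10.1, 10.6 and 10.6 CPM. The groups were well apart, and the IL-22 libraries varied less than the PBS ones, with a CV of 3.72% beside 14.6%. On the log2 scale the change was 0.62 (SE 0.11), and 0.43 with the GC index.

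Serping1 (chr2:84765387-84775444), the C1 inhibitor that restrains complement and the contact system, was one of the steadier genes. It ranged from 17.6 to 20.2 CPM with PBS (median 19.2) and from 22.1 to 26.5 CPM with IL-22 (median 22.6). The groups did not overlap. The log2 fold change was 0.31 (SE 0.07), and 0.38 with the GC index.

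The cytokine-linked and survival genes Tifa, C2cd4b, Il3ra and Nol3 had a median log2 fold change of 0.43 (0.28 with the GC index). The groups were apart for all 4. Tifa (chr3:127789805-127832164) encodes an adaptor with a forkhead-associated domain that links to TRAF proteins and NF-kB. It was at 18.5, 20.7, 17.1, 16.8 and 17.8 CPM with PBS and at 29.9, 28.2, 25.7, 24.3 and 25.8 CPM with IL-22. The lowest IL-22 library stood above the highest PBS one, and the difference of 8.59 CPM was the largest among the 38 genes. The change in log2 terms was 0.56 (SE 0.07), and 0.71 with the GC index. Of a list of 43 STAT3 and acute-phase targets, 3 were in the table, Tifa, Stat3 and Pim2. All 3 were higher and called, in a table where 81.3% of genes were, and Tifa was the one low enough to be among the 38. That list did not hold Apcs, Serpina3n, Serpina10 or Serping1. Nor did it hold Socs3, Bcl3, Cebpb, Junb or Fgb, which were in the table and higher with IL-22. Those genes were left out of the 38 by name, so the list does not count every such target in the table.

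C2cd4b, a nuclear protein gene that inflammatory cytokines induce in endothelium, ranged from 15.4 to 20.5 CPM with PBS and from 22.3 to 26.5 CPM with IL-22. Il3ra, the alpha chain of the IL-3 receptor, ranged from 11.9 to 14.7 CPM with PBS and from 16.5 to 21.6 CPM with IL-22, the top value being IL-22 replicate 4. Nol3, an inhibitor of apoptosis, was at 12.2 to 13.9 CPM with PBS and 15.1 to 17.6 CPM with IL-22. Their log2 fold changes were 0.45, 0.42 and 0.32 with SEs of 0.08, 0.09 and 0.07. With the GC index C2cd4b and Il3ra came to 0.21 each and Nol3 to 0.35. C2cd4b and Nol3 share transcript sequence with an antisense gene, M5C1000I18Rik and 4931428F04Rik respectively. The library kit keeps strand, but whether the counting used it is not given in the sources used here.

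The neuropeptide, synapse and endocytosis genes Cartpt, Anks1b, Lrrtm2 and Reps2 had a median log2 fold change of 0.45 (0.59 with the GC index). The groups did not overlap for any of these 4 genes. Cartpt (chr13:99898489-99901091) encodes the CART prepropeptide, a neuropeptide precursor that islet cells also make. It was at 8.86, 8.99, 9.34, 7.5 and 7.91 CPM with PBS and at 15.3, 11.5, 13.4, 12.0 and 12.6 CPM with IL-22. IL-22 replicate 1 was highest, and the lowest IL-22 library was still above all PBS libraries. The log2 fold change was 0.61 (SE 0.10), and 0.76 with the GC index.

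Anks1b (chr10:89873509-90973300), a scaffold of the postsynaptic density, was at 11.5, 12.2, 12.8, 11.6 and 11.3 CPM with PBS. With IL-22 it was at 17.9, 16.7, 16.3, 15.3 and 18.4 CPM. The PBS libraries were among the tightest of all 38 genes, with a CV of 5.10%. On the log2 scale the change was 0.51 (SE 0.08), and 0.57 with the GC index.

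Lrrtm2, a leucine-rich adhesion protein of excitatory synapses, was at 7.53 to 9.79 CPM with PBS and at 11.1 to 12.4 CPM with IL-22. Reps2, an EH-domain protein of growth factor receptor endocytosis, was at 10.1 to 11.9 CPM with PBS and at 13.01 to 14.3 CPM with IL-22. Their log2 fold changes were 0.39 (SE 0.09) and 0.32 (SE 0.08). Adjusted for the GC index, they came to 0.62 and 0.43. These 2 transcripts had the lowest GC contents of the 38, 38.4% and 42.0%.

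**Figure D3:**
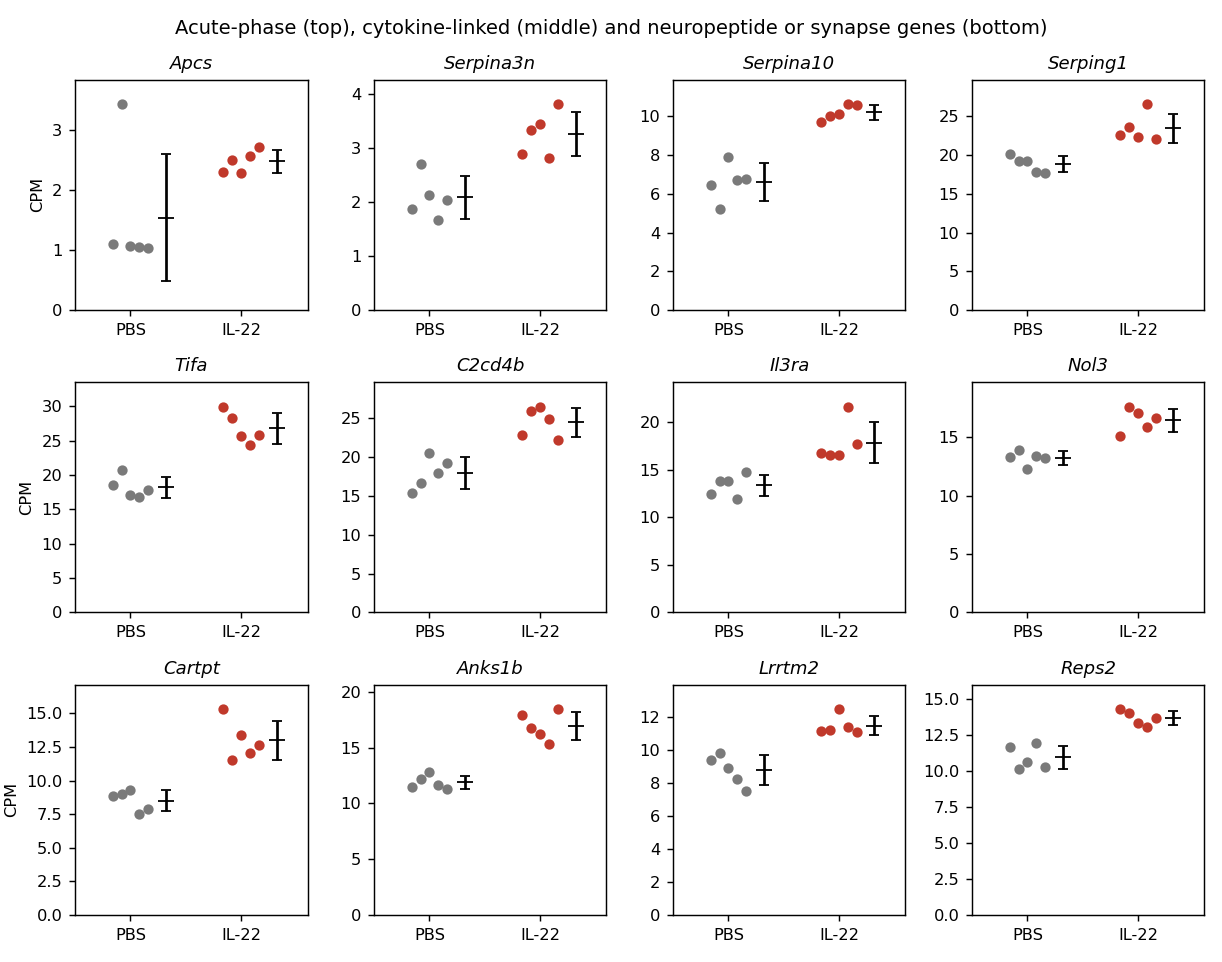
CPM on the vertical axis, from 0, in the 5 PBS (grey) and 5 IL-22 (red) libraries. Panels show the acute-phase (top), cytokine-linked and survival (middle) and neuropeptide, synapse and endocytosis genes (bottom). Black bars are the mean and SD of each group. The red points lie above all grey points in 11 of the 12 panels, and in the Apcs panel 1 PBS library at 3.42 CPM lies above them.

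The 6 genes of transcription and chromatin, Msx1, H2afj, Bmyc, Ccdc85b, Mzf1 and Zfp579, had a median log2 fold change of 0.49. With the GC index the median was 0.09. The groups overlapped for 5 of the 6 genes, with Bmyc the exception. Msx1 (chr5:37820485-37824583), a homeobox repressor, was at 2.21, 1.65, 2.97, 2.24 and 3.83 CPM with PBS and at 4.02, 3.85, 5.53, 5.67 and 3.69 CPM with IL-22. PBS replicate 5 lay above the lowest IL-22 library, and the other 4 PBS libraries lay below all of them. The log2 fold change was 0.81 (SE 0.21), and 0.07 with the GC index.

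H2afj (chr6:136808244-136810074), a replication-independent H2A variant, showed the same arrangement of libraries. It was at 6.87, 4.98, 7.24, 5.74 and 11.4 CPM with PBS and at 11.5, 12.1, 12.5, 10.4 and 13.2 CPM with IL-22. PBS replicate 5 was level with the IL-22 libraries. The change in log2 terms was 0.72 (SE 0.17), and 0.11 with the GC index. Part of its transcript is nearly identical to other annotated genes, with at least 97% identity over 111 to 141 nt, so its reads are less certain.

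Bmyc, a Myc relative without the DNA-binding domain, ranged from 8.15 to 12.2 CPM with PBS and from 12.7 to 15.6 CPM with IL-22, so the groups were narrowly apart. Its log2 fold change of 0.53 (SE 0.11) came to 0.15 with the GC index, and 623 nt of its transcript are shared with A230005M16Rik on the opposite strand. Mzf1 and Zfp579, both zinc finger proteins, had log2 fold changes of 0.44 and 0.37, and with the index these were -0.05 and -0.21. Ccdc85b, a repressor of transcription, had 0.46 and with the index 0.18. A stretch of 1056 nt of the Ccdc85b transcript is shared with Fosl1 on the opposite strand.

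The mitochondrial, RNA and metabolic genes were Trmt61a, Bola1, Romo1, Mex3d, Mrpl52 and Naprt, with a median log2 fold change of 0.31. With the GC index the median was 0.07. The groups were apart for 2 of these 6, Trmt61a and Mex3d. Trmt61a, the catalytic subunit of a tRNA adenosine methyltransferase, ranged from 10.4 to 13.2 CPM with PBS and from 14.3 to 15.8 CPM with IL-22. Mex3d, an RNA-binding protein, ranged from 15.1 to 18.3 CPM and from 19.3 to 21.2 CPM. Their log2 fold changes of 0.37 and 0.31 came to 0.23 and 0.12 with the GC index.

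Romo1, a small protein of the mitochondrial membrane tied to reactive oxygen species, had the highest level per transcript length of the 38 genes, 33.3 CPM per kb with PBS and 41.3 CPM per kb with IL-22. The difference on the log2 scale was 0.31 (SE 0.09), and 0.01 with the GC index. Bola1, of the mitochondrial iron-sulfur pathway, and Mrpl52, of the large mitochondrial ribosomal subunit, had 0.32 and 0.28. With the index they were at -0.13 and -0.03. Romo1 shares 148 nt of transcript with Nfs1 on the opposite strand. Naprt, which starts the making of NAD from nicotinic acid, had the smallest change, from 18.2 ± 1.1 to 21.7 ± 2.0 CPM (SD, n = 5), which is 0.25 in log2 terms. With the GC index the change of Naprt was 0.24. Naprt shares 277 nt of transcript with Eef1d on the same strand.

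The cytoskeletal, centrosomal and growth genes Tpgs1, Ppp1r35, Rprml, Fbxl15 and Mesdc1 had a median log2 fold change of 0.35 (0.21 with the GC index). The groups were apart for Mesdc1 alone. Tpgs1 (chr10:79669369-79676127), a subunit of the tubulin polyglutamylase complex, was at 8.97, 11.02, 13.04, 10.1 and 16.3 CPM with PBS and at 18.7, 17.9, 20.5, 15.8 and 17.5 CPM with IL-22. Here again PBS replicate 5 reached into the IL-22 range while the other 4 stayed below it. The log2 fold change was 0.61 (SE 0.13), and 0.12 with the GC index.

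Mesdc1, an actin-binding relative of talin, ranged from 15.9 to 20.3 CPM with PBS and from 21.7 to 24.99 CPM with IL-22, a log2 fold change of 0.30. Rprml, related to the cell-cycle inhibitor Reprimo, was at 9.72 to 12.1 CPM with PBS. With IL-22 4 libraries were at 15.1 to 16.1 CPM and replicate 4 at 11.2 CPM, inside the PBS range. The log2 fold change of Rprml was 0.35, and 0.31 with the GC index. Ppp1r35, a centriole protein, and Fbxl15, the substrate-binding part of a ubiquitin ligase, had log2 fold changes of 0.49 and 0.34. With the GC index these were 0.27 and 0.02. Fbxl15 shares 349 nt of transcript with Cuedc2 on the opposite strand.

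The remaining 9 genes are little characterised, and they held the 3 largest log2 fold changes. 1700084C01Rik (now Ccdc190, chr1:169928648-169934653) encodes a coiled-coil protein and had the lowest level per transcript length, 0.272 CPM per kb with PBS. Its read counts were 19, 7, 23, 2 and 20 with PBS and 67, 38, 49, 67 and 35 with IL-22. In CPM that was 0.531, 0.296, 0.767, 0.068 and 0.691 with PBS and 2.19, 1.42, 1.83, 2.39 and 1.27 with IL-22. The groups did not overlap, and it was the 1 gene under 1 CPM in every PBS library, so it passed the filter through the IL-22 libraries only. On the log2 scale the change was 1.92 (SE 0.38), and 1.30 (SE 0.59) with the GC index. With the replicate number as a block beside the index it was 0.40. A stretch of 508 nt of its transcript is shared with Gm15852 on the opposite strand.

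4930413G21Rik, an unverified transcript opposite Rbbp6, was at 1.03, 0.929, 1.53, 0.984 and 2.11 CPM with PBS and at 2.32, 3.21, 3.40, 2.92 and 2.64 CPM with IL-22. Gm1673, a small coding gene, was at 1.28, 2.32, 2.90, 1.76 and 3.52 CPM with PBS and at 5.07, 5.15, 5.75, 4.74 and 3.15 CPM with IL-22. The first did not overlap, and the second overlapped through PBS replicate 5 and IL-22 replicate 5. Their log2 fold changes were 1.13 and 1.03, and both came to 0.31 with the GC index. With the replicate number as a block beside the index, Gm1673 turned lower.

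1700023F06Rik ranged from 2.32 to 3.87 CPM with PBS and from 4.18 to 5.59 CPM with IL-22, a log2 fold change of 0.71 that came to 0.21 with the index. 2310039H08Rik and Eva1b had 0.48 and 0.42, and with the index 0.01 and -0.03. Fam84a, 2410006H16Rik and Prrt3 had 0.34, 0.28 and 0.29, and with the index 0.36, 0.37 and 0.16. 2410006H16Rik is a noncoding host of the small nucleolar RNAs Snord49a, Snord49b and Snord65.

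The 12 genes of the acute-phase, cytokine-linked and survival, and neuropeptide, synapse and endocytosis groups were set beside the other 26. The median log2 fold changes were close, 0.48 and 0.40. The IL-22 and PBS libraries were apart for 11 of the 12 and 8 of the 26, beside 46.5% of all listed genes. PBS replicate 5 was the highest PBS library for 1 of the 12 and 16 of the 26, beside 117 of 230 listed genes. The median CV of the PBS libraries was 8.83% and 17.6%. Adjusted for the GC index, the medians came to 0.50 and 0.15, and the fold change was as large as without it for 9 of the 12 and 2 of the 26. The median GC content was 49.8% in the 12 and 58.5% in the 26. Function and GC content therefore cannot be told apart in this contrast. Because the groups were drawn with these values known, no test was made of this contrast.

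**Figure D4:**
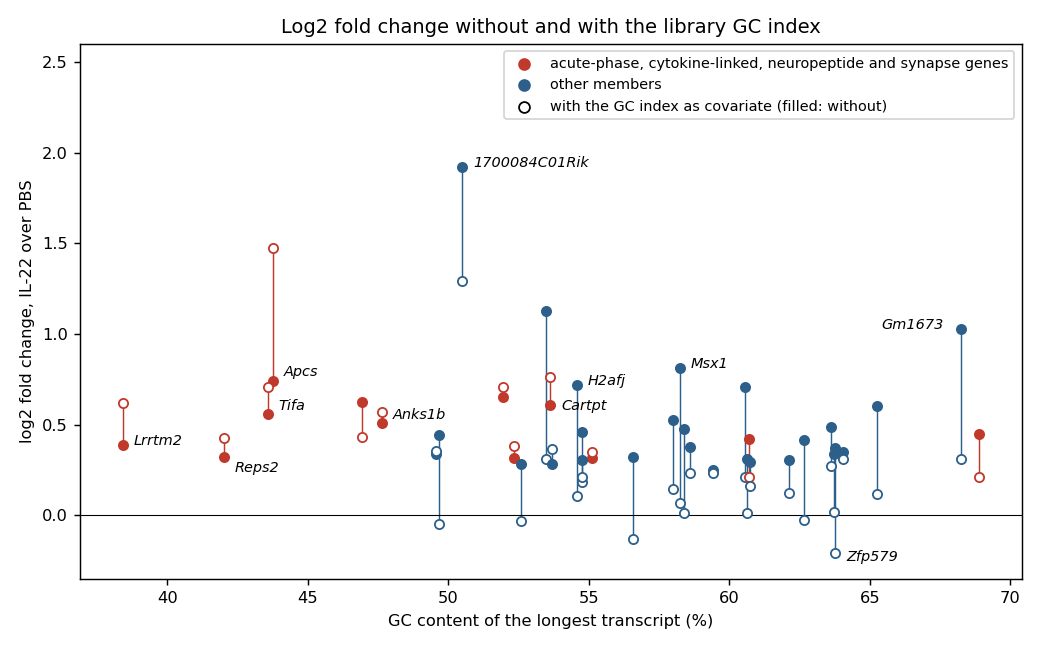
Log2 fold change (IL-22 to PBS), on the vertical axis, against the GC content of the longest transcript in percent, for the 38 genes. Filled circles are without and open circles with the library GC index as covariate, joined by a line for each gene. Red marks the 12 acute-phase, cytokine-linked, survival, neuropeptide, synapse and endocytosis genes, and blue the others. Most red genes keep or gain height, and most blue genes drop, 5 of them below 0.

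GC content and transcript length were not used by the rule. The 38 transcripts had a median GC content of 55.8%, beside 58.1% for the abundant higher genes, 43.1% for the genes lower with IL-22 and 49.1% for 21877 protein-coding genes. Their median length was 1800 nt, beside 2890 nt for the abundant higher genes. The 19 genes above the median GC content and the 19 at or below it had similar median log2 fold changes, 0.42 and 0.46. With the GC index these came to 0.15 and 0.38, and 0 and 11 genes were as large as without it. Across the 38 genes the rho of GC content with log2 fold change was -0.126, and with the CV of the PBS libraries 0.0953. Both are correlations across genes that share the same 10 libraries.

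The spread within a group was not used by the rule, and it was unequal. Variance over counting error was larger in the PBS than in the IL-22 libraries for 27 of the 38 genes, with medians of 5.05 and 2.93. Over the whole table it was larger for 161 of 230 genes, with medians of 6.01 and 3.48. It was over 10 for 10 genes with PBS and for 0 with IL-22, and H2afj was the most variable at 23.4. Within the PBS group the GC-rich genes deviated by -0.19, -0.11, 0.12, -0.03 and 0.26 on the log2 scale in replicates 1 to 5, as a median over 19 genes. The GC-poor genes deviated by -0.02, 0.03, 0.04, -0.08 and -0.01. Among the IL-22 libraries both sets stayed between -0.02 and 0.05. The spread of the GC-rich genes therefore lay mainly between PBS replicates 1 and 5, and its part in the fold changes was not tested beyond the values with the GC index.

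**Figure D5:**
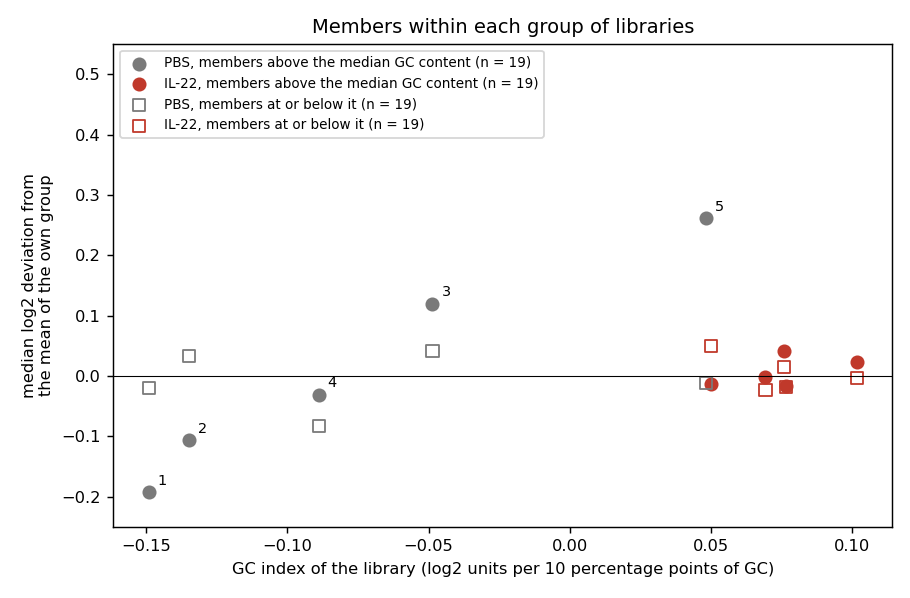
Median log2 deviation of the genes from the mean of their own group, on the vertical axis, against the GC index of the library in log2 units per 10 percentage points of GC. Filled circles are the 19 genes above the median GC content and open squares the other 19, in grey for PBS (numbered by replicate) and red for IL-22. The grey circles climb from -0.19 in PBS replicate 1 to 0.26 in PBS replicate 5, and the squares and the red points stay near 0.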

How the data were processed

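Stranded mRNA libraries of MIN6N8 cells were made from 1 ug of RNA (5 PBS, 5 IL-22; groups and replicate numbers from the sample labels). The deposited table lists 230 genes with their raw counts, which the authors did not normalize. The deposited CPM are those counts scaled to the library total. The authors' p-value and FDR columns were read only to check that every listed gene was under 0.05. Their fold change and mean expression columns were not used. The genome build is mm10 per the submitters' processing notes. The aligner and counting program are not given in the sources used here. The paper's methods give another IL-22 dose and maintenance glucose than the labels and its supplement another number of samples, and the labels were followed.

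Dividing counts by CPM gave the library totals. edgeR 4.0.16 (R 4.3.3; glmQLFit, two-sided) was run on counts with these totals, no normalization factors, at least 1 CPM in 5 libraries (all 230 passed) and Benjamini-Hochberg adjustment over 230 genes. Dispersion estimates rest on these 230 genes alone. The procedure was tested on simulated data. Alternatives used limma 3.58.1 and DESeq2 1.42.0. GC content, length and overlaps came from GENCODE M21 (36 of the 38 by the same symbol, 2 by an older one), and shared sequence from blastn 2.17.0 at 97% identity over 100 nt. The GC index used log2(CPM + 0.5). Python 3.11.15 and scipy 1.17.1 were used.

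The members and lists were chosen with earlier results of these data known. Named genes were the 10 largest and 5 smallest log2 fold changes, the 3 genes on each side of the 20 CPM limit, the 3 with the lowest level, and up to 4 for each function group. The others were named to account for every member.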

Additional observations from a re-analysis of the deposited data

Results flagged for a closer look

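In 76 sets of 5 libraries (38 genes in 2 groups), 6 had 1 library far from the other 4 by Dixon's criterion, beside 3.8 that chance would give at about 1 in 20. Apcs was at 3.42 CPM in PBS replicate 2 and at 1.04 to 1.09 CPM in the other PBS libraries. 2410006H16Rik was also high in PBS replicate 2, at 14.9 CPM beside 12.6 to 13.1 CPM. Rprml was low in PBS replicate 1, at 9.72 CPM beside 11.7 to 12.1 CPM, and low in IL-22 replicate 4, at 11.2 CPM beside 15.1 to 16.1 CPM. Il3ra was high in IL-22 replicate 4, at 21.6 CPM beside 16.5 to 17.7 CPM. Lrrtm2 was high in IL-22 replicate 3, at 12.4 CPM beside 11.1 to 11.4 CPM.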

How the results depend on the processing

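The median log2 fold change of 0.43 and the 34 calls came to 0.23 and 7 with TMM factors, 0.24 and 13 with DESeq2's own size factors, and 0.22 and 4 with the GC index, where 7.83%, 13% and 7.39% of all listed genes were called higher. TMM moved the median of all listed genes by -0.20 and DESeq2's factors by -0.19, and under either no member turned lower. With a limit of 10 CPM the median was 0.65, and of 15 genes 13 were called and 8 were apart. With 30 CPM the median was 0.33, and of 60 genes 55 were called and 33 were apart. Over all listed genes 81.3% were called higher and 46.5% were apart, so these counts lay near the share of the table. Leaving out 1 library at a time gave medians of 0.39 to 0.50, 23 to 37 calls and 19 to 30 genes apart, the last without PBS replicate 5. Of all listed genes 55.2% to 85.2% were called in these fits, and the share apart was not counted. Without PBS replicates 1 and 2 together, a choice made after seeing the data, 19 genes were called, beside 31.3% of all listed genes. With the GC index 5 genes were lower, Mzf1 at -0.049, Eva1b at -0.028, Zfp579 at -0.21, Bola1 at -0.13 and Mrpl52 at -0.031. The cause was not tested.

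The replicate number as a block gave a median of 0.44 and 35 calls, beside 83.9% of all listed genes called. Same-numbered libraries correlated at 0.26, 0.30, 0.30, -0.03 and -0.21, and 3 of 5 correlated best with their own number, so the number was not taken as a pairing. Block and GC index together gave a median of 0.17 and 0 calls in edgeR, beside 2.61% of all listed genes called. At an unadjusted p under 0.05 in that fit, 9 genes were higher. There Gm1673 was at -0.29, Msx1 at -0.11, Ppp1r35 at -0.11, Mzf1 at -0.44, Zfp579 at -0.12, Fbxl15 at -0.16, Bola1 at -0.14, Romo1 at -0.011 and Naprt at -0.064, and 1700084C01Rik came to 0.40. Of 380 single-gene values with 1 library left out, 379 moved by less than 1 SD and 1 by more, Apcs without PBS replicate 2 at 1.21.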
